A study of Mus musculus with 6 samples.

Results

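Chemokines are small secreted proteins that draw white blood cells along a gradient by binding receptors of the G protein-coupled kind. The 10 chemokine genes described here, Ccl2, Ccl5, Ccl7, Ccl20, Cxcl1, Cxcl2, Cxcl5, Cxcl10, Cxcl12 and Cxcl16, were taken as a fixed list of chemokines a tumour cell can release, and every probe set that the array's annotation assigns to 1 of them alone was used. This gave 15 probe sets for 10 genes, out of 45101 probe sets on the array and 18193 genes with a probe set of their own. A probe set is a group of short oligonucleotides on the array that together give 1 signal for a transcript.

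The RNA came from 393P, a mouse lung cancer cell line grown in RPMI medium with fetal bovine serum. One group of 3 samples carried the pcDNA control vector and the other group of 3 the Zeb1 vector, each introduced by lipid transfection and kept for stable, constitutive expression, with 1 array per sample. Zeb1 is a transcription factor that shuts off genes of the epithelial state. The labels do not say whether the replicates are separate transfections, clones or cultures, so p-values measure the spread between these samples, which may be technical.

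Across tested probe sets, which are not independent replicates, Pearson's r lay between 0.979 and 0.984 for a pair within a group and between 0.867 and 0.873 for a pair across groups. Zeb1 checked the labels: its brightest probe set (1418926_at) lay at log2 3.36, 3.84 and 4.50 on the control arrays and at 9.71, 9.59 and 9.78 on the Zeb1 arrays, a rise of 5.23 with values below the floor raised to it (SE 0.177, adjusted p = 2.3e-08, limma). Of the other Zeb1 probe sets, 1443005_at rose by 1.17 (adjusted p = 0.00895, limma), and 1420243_at and 1446127_at were too dim to test. The keratins Krt8, Krt18 and Krt19, which mark simple epithelium, were bright in both groups (group means of log2 13.4 to 14.7). Of the other epithelial markers on the list, the adhesion molecule Epcam fell by 7.05 (13.72 to 6.66, adjusted p = 1.32e-09, limma) and Cdh1, or E-cadherin, fell by 4.01 (14.18 to 10.17, adjusted p = 2.64e-10). The summed linear signal of the 5 epithelial markers was 89443 to 95379 on control and 57520 to 61742 on Zeb1 arrays, and its part in the chemokine differences was not tested. Among 4 alveolar type II markers, the surfactant gene Sftpb stood at 8.08 in control and 8.44 in Zeb1 cells, Sftpc at 6.31 and 6.30, Sftpa1 at 5.47 and 6.36, and the lineage factor Nkx2-1 near the floor at 4.79 and 4.63. Of 10 leukocyte markers 8 had a probe set, and their summed linear signal was 691 to 747 on control and 513 to 810 on Zeb1 arrays. Of the 8, 3 were bright enough to test (Cd68, Csf1r and Lyz2), with log2 differences of -0.10, -0.25 and -0.02 and adjusted p-values of 0.63, 0.231 and 0.962 (limma). Cd68 (7.62 in control and 7.52 in Zeb1 cells) and Csf1r (7.86 and 7.60) reached the array median on all 6 arrays. Among the untested markers the myeloid integrin Itgam was at the floor on 3 control and 2 Zeb1 arrays. The pan-leukocyte marker Ptprc was at the floor on 0 control and 2 Zeb1 arrays, and S100a8 on 0 and 1. Adgre1 (6.12 and 6.33) and Cd3e (5.09 and 5.17) were at the floor on none.

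All signals below are on a log2 scale, so that a difference of 1 is a doubling. Deposited values under log2 4.45, the 25th percentile of all values, were raised to that floor before the means, differences and tests, because signals this low carry little but noise. Testing was limited to probe sets at or above the array median on 3 or more arrays, and a probe set is said to rise or fall only where its adjusted p is below 0.05. Of the 15 chemokine probe sets 8 passed this filter, for Ccl2, Ccl5, Cxcl16, Cxcl1 and Cxcl5. The other 7, for Ccl7, Ccl20, Cxcl10, Cxcl12 and Cxcl2, were too dim and are described by their values. Ccl2 reached the array median on the 3 Zeb1 arrays alone and Ccl5 on those and 1 control array, so a difference was built into their passing. The same holds for Zeb1, on 1418926_at (the 3 Zeb1 arrays alone) and on 1443005_at (those and 1 control array). Tested probe sets were called in 46.1% of cases (24.5% higher and 21.6% lower in Zeb1 cells), and 3 chemokine probe sets were called higher, 4 lower and 1 not at all. The median log2 difference was -0.73 over those 8 and 0.02 over all tested probe sets. Cxcl1 and Cxcl16 enter it with several probe sets each. Taken gene by gene, the median was 0.87 over the 5 tested members and 0.01 over all tested genes, so the sign depends on the unit. With no filter, all 15 could be tested against a background of 23.6% called (12.7% higher and 10.9% lower). Of them 2 were called higher (Ccl2 and Ccl5) and 5 lower (Cxcl2 and the called probe sets of Cxcl16 and Cxcl1). Zeb1 on 1443005_at was then not called (adjusted p = 0.0697, limma).

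**Figure D1:**
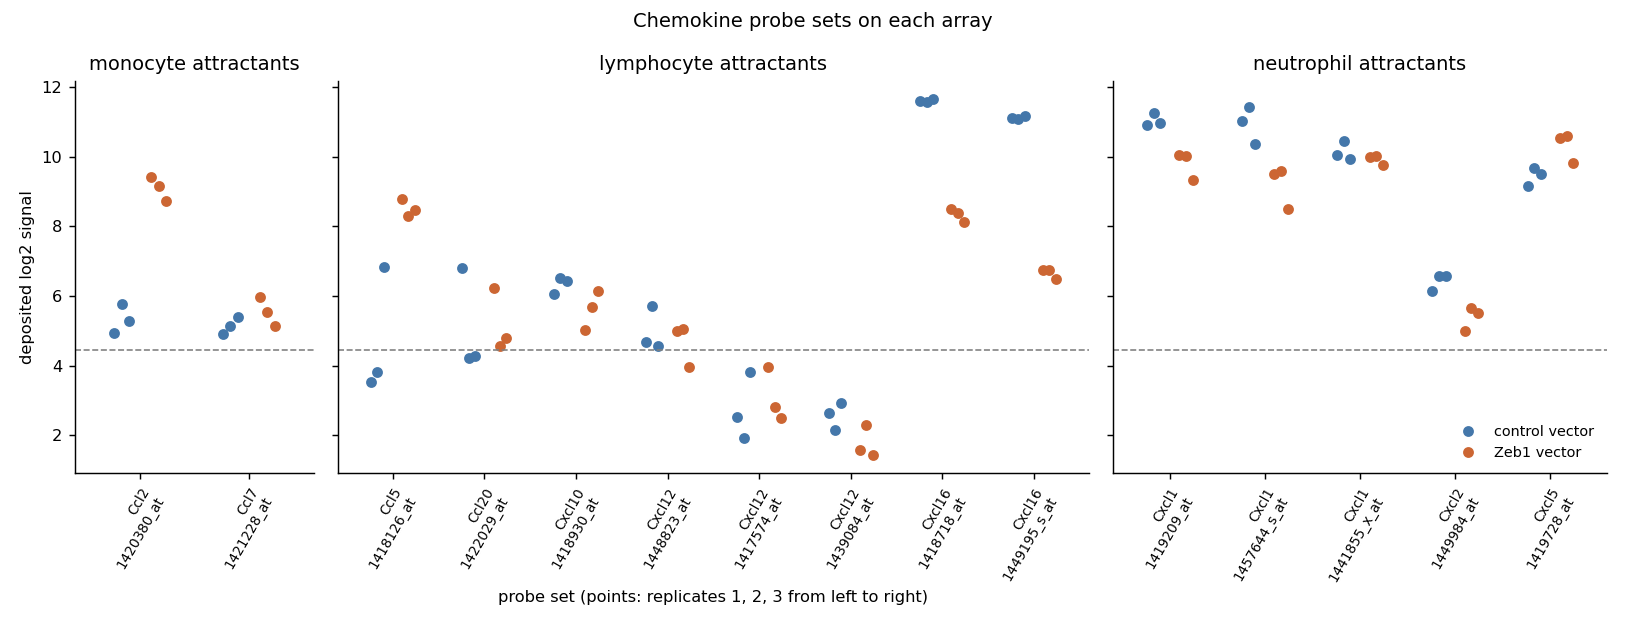
Deposited log2 signal of the 15 chemokine probe sets, grouped by the leukocytes each chemokine is best known to attract. Each point is 1 array (control vector in blue, Zeb1 vector in orange) and the dashed line is the floor at log2 4.45. The 2 groups stand apart for Ccl2, Ccl5, both probe sets of Cxcl16, the first 2 probe sets of Cxcl1, Cxcl2 and Cxcl5, and they overlap for the other 7 probe sets.

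Monocyte attractants came first. Ccl2, also called MCP-1, and Ccl7, MCP-3, both signal through Ccr2 and are known for drawing monocytes out of the blood into tumours. Ccl2 rose in Zeb1 cells. Its signal was 4.94, 5.77 and 5.29 on the control arrays and 9.42, 9.14 and 8.72 on the Zeb1 arrays, so even the lowest Zeb1 array stood well above the highest control array. The means were 5.33 ± 0.418 and 9.10 ± 0.352 (SD, n = 3 each), a rise of 3.76 (SE 0.264, 95% interval 3.17 to 4.36, adjusted p = 2.72e-06, limma), or 13.6-fold. Since the control level lies below the median of the arrays, the size depends on where the floor is set, and a floor at the 50th percentile gave a rise of 2.77. In the fit with no filter its adjusted p was 0.0015.

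Ccl7 lay low in both groups. It read 4.91, 5.13 and 5.39 in control cells and 5.97, 5.54 and 5.15 in Zeb1 cells. The lowest Zeb1 array fell among the control arrays, and no array reached its median. In the fit with no filter the difference was 0.41 (95% interval -0.25 to 1.07, adjusted p = 0.366, limma), an interval that leaves out a change as large as that of Ccl2.

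In gene order on GRCm38.p6, as RefSeq lists it, Ccl2 and Ccl7 are followed by Ccl11, Ccl12, Ccl8 and Ccl1, with no other protein-coding gene between them. These 4 further CC chemokines were looked at after their values were seen. Among them Ccl8, a further monocyte attractant, was bright enough to test and had a log2 difference of 0.02 (adjusted p = 0.968, limma). Ccl12 lay at the floor on all 6 arrays and the eosinophil attractant Ccl11 on 5 of 6. Ccl1 was low as well, at 5.27 and 5.60. Of these 6 neighbours 2 could be tested, and Ccl2 was the one called.

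Lymphocyte attractants went in opposite directions. Ccl5, or RANTES, acts on T cells and monocytes. It read 3.52, 3.83 and 6.84 in control cells and 8.77, 8.31 and 8.48 in Zeb1 cells. The Zeb1 arrays lay close together and above all control arrays, whereas control replicate 3 was far brighter than the other control arrays, which were below the floor. With those raised to the floor the means were 5.24 ± 1.38 and 8.52 ± 0.236 (SD, n = 3 each), a rise of 3.28 (SE 0.560, 95% interval 2.02 to 4.53, adjusted p = 0.00097, limma), or 9.68-fold on that scale. Leaving out control replicate 3 gave 4.07, and leaving out control replicate 1 or control replicate 2 gave 2.88. Using no floor gave 3.79, and a floor at the 50th percentile gave 2.02. In the fit with no filter the 95% interval was 1.32 to 5.23 and the adjusted p was 0.0374 (limma).

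Cxcl16 fell in Zeb1 cells on both of its probe sets. This chemokine is made as a membrane-bound protein that can be shed, and it attracts T cells and natural killer T cells through Cxcr6. On probe set 1418718_at it read 11.61, 11.56 and 11.66 in control cells and 8.49, 8.37 and 8.12 in Zeb1 cells, and on 1449195_s_at it read 11.12, 11.09 and 11.16 against 6.76, 6.75 and 6.50. Replicates lay close together, and the groups were far apart on both. Cxcl16 fell by 3.28 (SE 0.108, 95% interval -3.52 to -3.04, adjusted p = 1.92e-08, limma) and by 4.45 (SE 0.115, 95% interval -4.71 to -4.20, adjusted p = 4.81e-09), or 9.71-fold and 21.9-fold lower. The intervals of the 2 probe sets do not meet, so the array gives a direction for Cxcl16 and a range for its size.

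The remaining 3 lymphocyte attractants were dim. Cxcl10, an interferon-induced ligand of Cxcr3 on activated T cells, read 6.04, 6.52 and 6.43 in control cells and 5.04, 5.68 and 6.14 in Zeb1 cells. The highest Zeb1 array lay just above the lowest control array, and the difference with no filter was -0.71 (95% interval -1.58 to 0.16, adjusted p = 0.231, limma). Ccl20, which calls Ccr6-bearing lymphocytes and dendritic cells, read 6.82, 4.23 and 4.27 in control and 6.24, 4.57 and 4.81 in Zeb1 cells. One array of each group was bright and the other arrays were near or below the floor, and its 95% interval ran from -2.30 to 2.24, so these arrays do not settle its direction. Cxcl12, the ligand of Cxcr4 and of the scavenging receptor Ackr3, is usually made by stromal cells. Its probe sets 1417574_at and 1439084_at lay below the floor on all 6 arrays, between log2 1.43 and 3.97. The third, 1448823_at, read 4.68, 5.73 and 4.56 in control and 4.99, 5.04 and 3.97 in Zeb1 cells, with a difference of -0.16 with no filter (95% interval -1.16 to 0.84, adjusted p = 0.895).

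**Figure D2:**
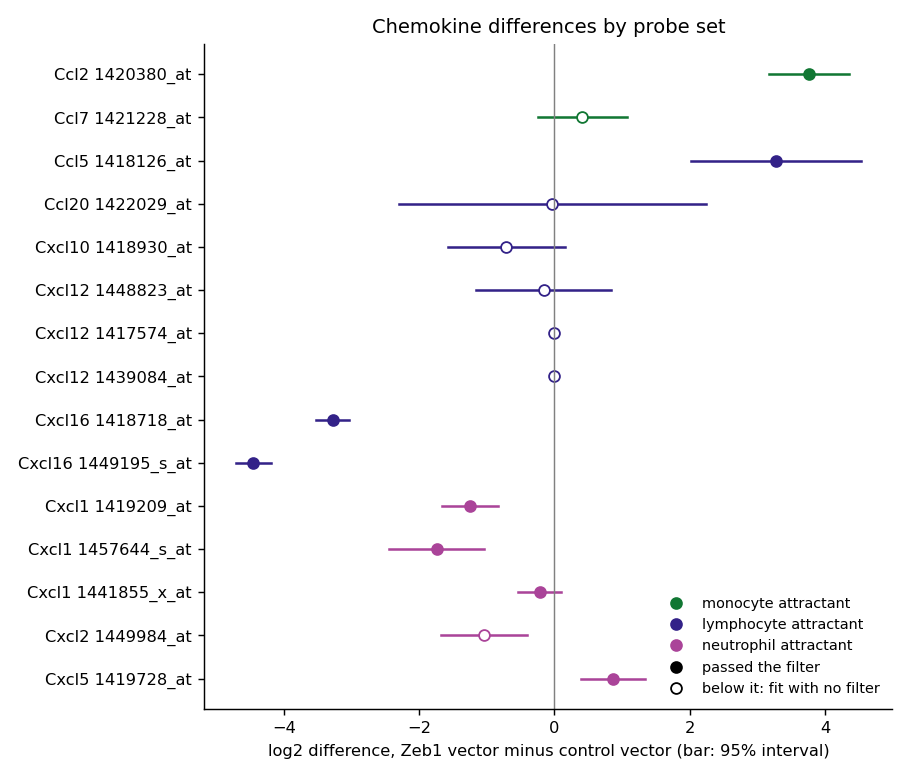
Log2 difference between Zeb1 and control vector cells for each chemokine probe set, with limma's 95% interval. Filled points passed the filter on dim probe sets, and open points come from the fit with no filter. Ccl2 (3.76) and Ccl5 (3.28) lie at the upper end, the probe sets of Cxcl16 (-3.28 and -4.45) at the lower end, and the intervals of Ccl7, Ccl20, Cxcl10 and Cxcl12 include 0.

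Neutrophil attractants were also divided. Cxcl1, Cxcl2 and Cxcl5 all bind Cxcr2, the receptor that guides neutrophils, and in lung tumours they are known for recruiting neutrophils and their immature relatives. Cxcl1 was read by 3 probe sets. On 1419209_at it read 10.91, 11.26 and 10.96 in control cells and 10.05, 10.01 and 9.32 in Zeb1 cells, with no overlap between groups. It fell by 1.25 there (SE 0.185, 95% interval -1.66 to -0.83, adjusted p = 0.000393, limma), or 2.37-fold. On 1457644_s_at it read 11.03, 11.42 and 10.38 in control cells and 9.51, 9.59 and 8.50 in Zeb1 cells. It fell by 1.74 there (SE 0.313, 95% interval -2.45 to -1.04, adjusted p = 0.0013), or 3.35-fold.

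The third Cxcl1 probe set, 1441855_x_at, did not pass the test. It read 10.05, 10.45 and 9.92 in control cells and 9.99, 10.02 and 9.75 in Zeb1 cells, which overlap. Its difference of -0.22 (SE 0.141, 95% interval -0.54 to 0.10, adjusted p = 0.239, limma) has an interval that does not reach those of the other Cxcl1 probe sets. By the array maker's naming, the suffix x marks a set with oligonucleotides that may bind other transcripts, and s a set shared by several transcripts. The Cxcl1 probe sets differ in their values, so the size of the fall in Cxcl1 is uncertain. Related CXC chemokines have similar sequences, but whether binding of other transcripts plays a part was not tested. The Cxcl16 probe set 1449195_s_at carries the suffix s as well.

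Cxcl2, also called MIP-2, was close to the array median in control cells and below it in Zeb1 cells. It read 6.14, 6.57 and 6.59 in control cells and 4.99, 5.66 and 5.52 in Zeb1 cells. The groups did not overlap, but since it reached the median on 2 arrays it was not tested in the filtered fit. With no filter its difference was -1.04 (SE 0.244, 95% interval -1.68 to -0.41, adjusted p = 0.0401, limma).

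Cxcl5, which epithelial cells of the lung are known to release, differed in direction from Cxcl1. It read 9.16, 9.69 and 9.49 in control cells and 10.53, 10.59 and 9.81 in Zeb1 cells. The groups were apart, though Zeb1 replicate 3 lay just above the highest control array. Cxcl5 rose by 0.87 (SE 0.208, 95% interval 0.40 to 1.34, adjusted p = 0.00699, limma), or 1.82-fold. In the fit with no filter Cxcl5 was no longer called (adjusted p = 0.0906).

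Promoter sequence was at hand for 5 of the 10 genes, Ccl20, Cxcl10, Cxcl12, Cxcl1 and Cxcl2, from RefSeq on GRCm38.p6. Those of Cxcl1 and Cxcl2 are printed because these neighbouring genes were both lower in Zeb1 cells. Each line gives the 250 bases before the gene start, 5′ to 3′ on the gene's strand, with matches to the NF-κB consensus in capitals. NF-κB is the factor best known for switching on inflammatory chemokine genes.
Cxcl1, chr5:90890995-90891244, plus strand: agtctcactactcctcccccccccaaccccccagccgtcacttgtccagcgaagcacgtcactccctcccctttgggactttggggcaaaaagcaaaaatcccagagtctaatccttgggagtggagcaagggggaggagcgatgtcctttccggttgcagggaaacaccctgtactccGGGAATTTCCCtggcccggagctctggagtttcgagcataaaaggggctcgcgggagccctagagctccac
Cxcl2, chr5:90903649-90903898, plus strand: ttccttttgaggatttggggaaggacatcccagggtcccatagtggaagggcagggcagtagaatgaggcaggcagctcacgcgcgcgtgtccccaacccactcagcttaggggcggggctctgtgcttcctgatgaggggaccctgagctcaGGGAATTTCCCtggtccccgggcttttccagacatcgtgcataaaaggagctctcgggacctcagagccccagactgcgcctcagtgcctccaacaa

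The capitals begin 71 bases before the start of Cxcl1 and 97 bases before that of Cxcl2, and the same letters stand in both. In each gene the run holds a match on either strand, shifted by 1 base. Searched on both strands, the NF-κB consensus occurred in 4 of the 5 chemokine windows (Cxcl12 had none) and in 3.90% of all 32851 RefSeq windows of this length. CAGGTG, an E-box that Zeb1 can bind, occurred in 1 of 5 windows, that of Ccl20, against 17.2% of all windows, and CAGGTA in 0 of 5 against 10.0%. The interferon-stimulated response element and the AP-1 site TGANTCA each occurred in 1 of 5, in both cases Cxcl10, against 2.98% and 6.75% of all windows. None of these motifs overlapped another kind. A match describes letters in these windows and does not show that a factor binds there.

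The same RefSeq order places Cxcl5, Ppbp, Pf4, Cxcl3, Cxcl15, Cxcl1 and Cxcl2 next to each other in that order. Ppbp, the precursor of another Cxcr2 ligand, which platelets store, read 13.95, 13.74 and 13.87 in control cells and 8.94, 9.15 and 8.63 in Zeb1 cells. It fell by 4.95 (SE 0.119, adjusted p = 1.26e-09, limma over genes), or 30.8-fold, the largest fall in the list of other chemokines. Cxcl3, a Cxcr2 ligand like Cxcl1, rose by 1.08, from 8.13, 8.05 and 8.16 to 9.52, 9.23 and 8.84 (SE 0.165, adjusted p = 0.000335). Pf4, a platelet chemokine looked at for its place in the run, had a difference of -0.72 (adjusted p = 0.106), and Cxcl15, looked at for the same reason, was at the floor on 4 of 6 arrays. Neighbouring genes of this run were thus called both higher (Cxcl5 and Cxcl3) and lower (Ppbp and Cxcl1).

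**Figure D3:**
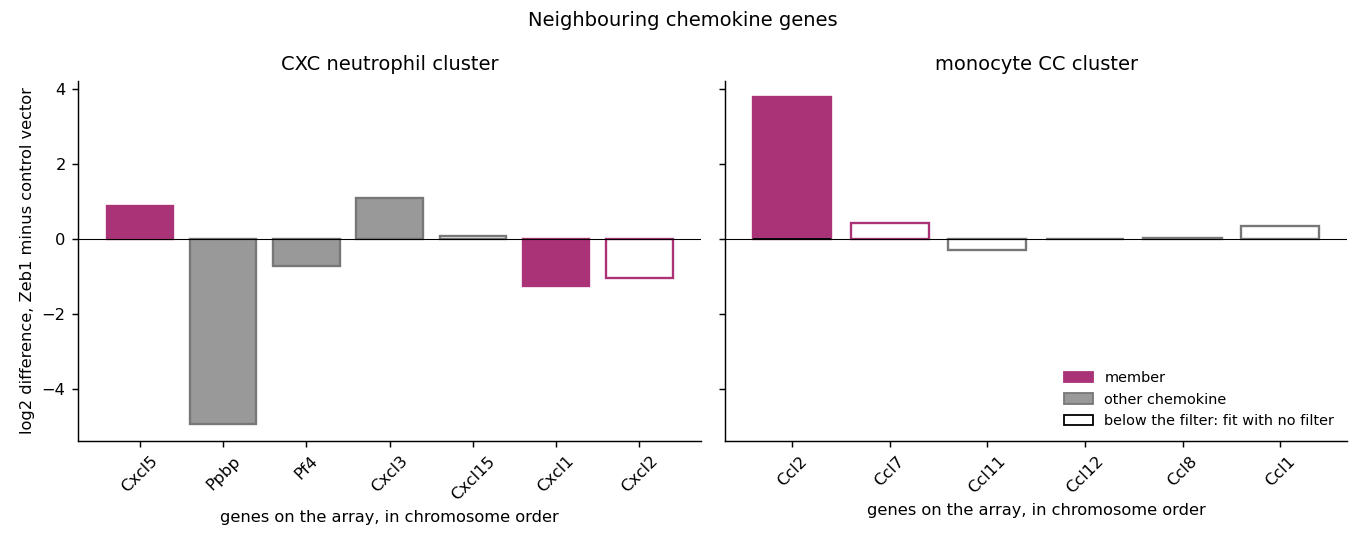
Log2 difference between Zeb1 and control vector cells for chemokine genes that are neighbours on a chromosome, in their order there, with 1 bar per gene starting at 0, purple for the listed chemokines and grey for other chemokines. Bars carry no error. Filled bars were tested and open bars are below the filter, from the fit with no filter. Ppbp stands at -4.95 and Cxcl3 at 1.08 in the CXC run, and Ccl2 at 3.76 is the tall bar of the CC run.

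Read against all tested probe sets, the called chemokines fell on both sides of 0. Groups of arrays did not overlap for 7 of the 8 tested chemokine probe sets, against 55.4% of all tested probe sets (29.2% with the Zeb1 arrays all higher and 26.2% with them all lower), and for 8 of all 15, against 36.8% with no filter. Taken gene by gene, with the brightest tested probe set of each, 3 of 5 tested members rose (Ccl2, Ccl5 and Cxcl5) and 2 fell (Cxcl16 and Cxcl1), against 26.4% and 24.1% of all 11893 tested genes (50.5% called either way). With no filter 2 of the 10 genes were called higher and 3 lower, against 15.5% and 14% of 18193 genes (29.5% either way). The filtered counts cover only the members that were bright enough. On 11 of the 15 member probe sets Zeb1 replicate 3 had the lowest of the 3 Zeb1 values, counting 2 Cxcl12 probe sets that lie below the floor. Its array median was also the lowest of the 3 (log2 6.26 against 6.37 and 6.44), and the share over all probe sets was not computed. Without this replicate Ccl2 rose by 3.95, Cxcl5 by 1.12 and Cxcl1 on 1419209_at fell by 1.01.

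**Figure D4:**
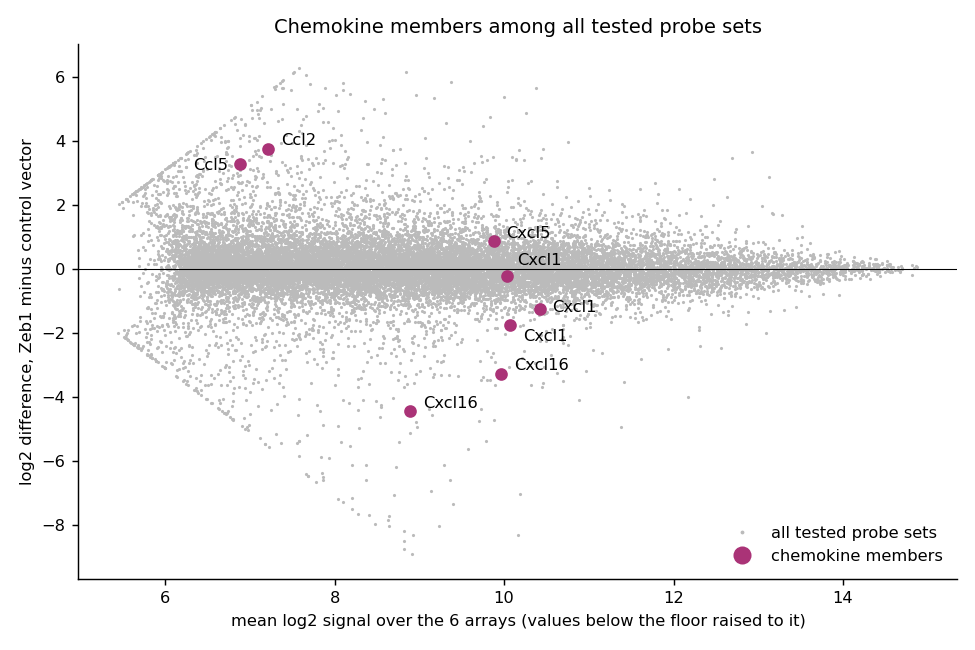
Log2 difference against mean log2 signal over the 6 arrays for all 20594 tested probe sets (grey), with the 8 tested chemokine probe sets named. The straight edges on the left come from the floor. Ccl2 and Ccl5 lie above 3 on the vertical axis, the probe sets of Cxcl16 lie below -3, and Cxcl5 and the 3 probe sets of Cxcl1 lie within 2 of 0.

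Other genes with a pattern like those of the extreme members were found by the distance between log2 values over the 6 arrays, each gene centred on its own mean. Of 11892 other tested genes, Apcdd1 (distance 0.57), Calml4 (0.57) and Plscr4 (0.62) lay nearest to Ccl2, with log2 differences of 3.76, 3.78 and 3.99. Nearest to Cxcl16 were Dok2 (0.17), Akap12 (0.34) and Fam83f (0.36), with log2 differences of -3.36, -3.19 and -3.09. Apcdd1 encodes a Wnt inhibitor and Dok2 a docking protein of receptor signalling. Calml4 was close to the floor in control cells (mean 4.56), and its difference was 5.35 with no floor and 2.01 with a floor at the 50th percentile. Fam83f was at the floor on the Zeb1 arrays, and its difference was -5.38 and -1.21 under these settings.

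Among the other chemokines on the array, 3 of 15 tested genes rose, 2 fell and 10 were not called, against 26.4% higher and 24.1% lower among all tested genes, and with a median log2 difference of 0.06 against 0.01. Ccl9, a myeloid attractant that binds Ccr1, rose by 1.85 (6.62 ± 0.380 to 8.47 ± 0.194, SD, n = 3 each, adjusted p = 5.86e-05, limma), and its other probe set, which reached the median on the 3 Zeb1 arrays alone, differed by 2.48. Cx3cl1, or fractalkine, a membrane-tethered ligand, rose by 0.73 (adjusted p = 0.000336), although its second tested probe set had a difference of -0.23 (adjusted p = 0.439) and their mean was not called (0.25, adjusted p = 0.175). Beside Ppbp, Ccl6 fell by 0.84 (adjusted p = 0.0388), a call lost on leaving out any array but control replicate 1. Its probe set reached the median on the 3 control arrays alone, so a difference was built into its passing. For Ccl6 the adjusted p was 0.0605 with no floor, 0.312 under a floor at the 50th percentile, and 0.0758 in the fit with the replicate number as a block. A further 10 of these genes had probe sets too dim to test, among them the Cxcr3 ligands Cxcl9 and Cxcl11.

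The receptors for these chemokines were mostly dim in both groups. Of 11 tested receptors 3 rose, 0 fell and 8 were not called, with a median log2 difference of 0.32, and the share that rose was near the 26.4% of all tested genes. Ackr3, which binds and removes Cxcl12, rose by 0.76 (10.72 ± 0.109 to 11.48 ± 0.0373, adjusted p = 1.83e-05, limma). Ackr4, a scavenger of other CC chemokines, rose by 0.89 (adjusted p = 0.00226). Ccr2, the receptor of Ccl2, rose by 1.08 on a dim probe set (5.95 ± 0.416 to 7.03 ± 0.302, adjusted p = 0.012) that reached the median on 3 Zeb1 arrays and 1 control array. With no filter its adjusted p was 0.0486 in the fit over genes and 0.0612 in the fit over probe sets, and its other 3 probe sets lay near or below the floor in both groups. Cxcr2 and Cxcr4 were at the floor on all 6 arrays. Ccr1 (5.88 and 6.10) and Cxcr6 (5.65 and 6.14) were too dim to test, and Ccr6 and Cxcr3 had log2 differences of 0.35 (adjusted p = 0.286) and 0.23 (adjusted p = 0.486).

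Both signalling pathways that are known to drive chemokine genes were examined. Among NF-κB pathway genes 5 of 18 rose, 4 fell and 9 were not called, with a median log2 difference of -0.11, shares near the 26.4% and 24.1% of all tested genes. The inhibitor Nfkbie rose by 0.98 (adjusted p = 0.000503, limma), Bcl3, a nuclear cofactor, by 0.59 (adjusted p = 0.0364) and Tnip1 by 0.54 (adjusted p = 0.0126). The subunit Nfkb2 fell by 0.66 (adjusted p = 0.000336), the feedback inhibitor Tnfaip3 by 0.53 (adjusted p = 0.000295) and the adaptor Traf2 by 0.52 (adjusted p = 0.00571). The second tested probe set was not called for Nfkb2 (-0.48, adjusted p = 0.116, limma over probe sets) or for Tnfaip3 (-0.58, adjusted p = 0.0559). With no filter Bcl3 and Tnip1 were not called (adjusted p = 0.105 and 0.103). The number that rose was then 3 of 18, against 15.5% of all 18193 genes. Bcl3 also lost its call under quantile and median scaling (adjusted p = 0.0751 and 0.0752) and without control replicate 1 or 3 or Zeb1 replicate 2 or 3.

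Of 17 tested genes of interferon sensing and signalling 9 rose, 0 fell and 8 were not called, against 26.4% of all tested genes that rose, with a median log2 difference of 0.33. Ifih1, a sensor of double-stranded RNA, rose by 1.49 (6.06 ± 0.349 to 7.55 ± 0.127, SD, n = 3 each, adjusted p = 0.000524, limma). Its probe set reached the median on 3 Zeb1 arrays and 1 control array. Irf9 and Irf1, transcription factors of the interferon response, rose by 1.16 (adjusted p = 0.000249) and 1.15 (adjusted p = 7.52e-06). The Cxcr3 ligand Cxcl10, an interferon target, was too dim to be tested in this fit, so it could not be called here. Its values are given above. With no filter 6 of the 17 rose, against 15.5% of all 18193 genes.

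Among proteases that cut or shed chemokines 2 of 4 tested genes rose and 0 fell, against 26.4% and 24.1% of all tested genes. Adam10, which sheds Cxcl16 from the cell surface, rose by 0.50 (11.58 ± 0.196 to 12.08 ± 0.140, SD, n = 3 each, adjusted p = 0.0026, limma), and Mmp14, a membrane-bound matrix protease, rose by 1.56 (adjusted p = 6.82e-06). Further tested probe sets of Adam10 differed by 0.77 (adjusted p = 0.00074, limma over probe sets) and by 0.25 (adjusted p = 0.408, not called). With no filter the adjusted p of the reported Adam10 probe set was 0.0429 in the fit over genes and 0.0522 in the fit over probe sets. The other sheddase of the list, Adam17, had a log2 difference of -0.21 and was not called.

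**Figure D5:**
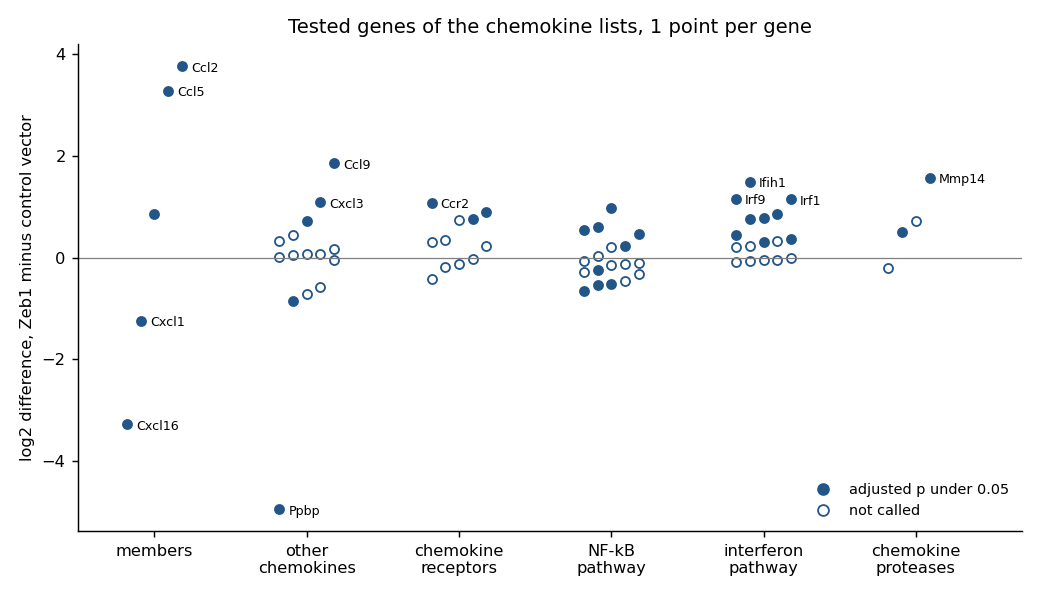
Log2 difference between Zeb1 and control vector cells for each tested gene of the member list and of 5 related lists, with filled points for adjusted p under 0.05 and names for called genes beyond 1. Members and the other chemokines spread from -4.95 (Ppbp) to 3.76 (Ccl2), and tested receptors, pathway genes and proteases lie between -0.66 and 1.56.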

How the data were processed

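The table deposited by the authors held log2 signals for 6 arrays (45101 probe sets), made with MAS5, per the submitters' processing notes, which treats every array separately; its version is not given there. Each array had a trimmed mean linear signal of 500, with 2% trimmed from each end. Depth does not apply; 3 arrays per group limit the precision. Of 2 missing values, set to the floor, 0 were of members. Control probe sets (64), those with several symbols (932) and those with no symbol here (9160) were left out. Symbols of 34741 of the remaining 34945 were found in RefSeq (GRCm38.p6), and 0 changed. Zeb1 vector was compared with control vector in limma 3.58.1 (R 4.3.3) with an intensity trend and Benjamini-Hochberg adjustment over all 20594 tested probe sets, or 11893 genes for the lists; the script was tested on simulated data. Every member was named, with up to 3 called rises and 3 called falls of each list, the members' receptors and the nearest genes. The members, lists and tests were chosen with earlier results of these data known.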

Additional observations from a re-analysis of the deposited data

How the results depend on the processing

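Precision is limited by 3 arrays a group and, for the dim chemokines, by signals near the floor; tested here were other floors, filters, scalings and priors, the replicate number as a block, and leaving out each array. Ccl2, Ccl5, both Cxcl16 probe sets and the called Cxcl1 probe sets kept direction and call in every alternative that tested them, and Cxcl5 in all but the fit with no filter. The filter at the median on all 6 arrays dropped Ccl2 and Ccl5. It left 1 member probe set, 1 member gene and 0 Zeb1 probe sets called higher, with 1 other chemokine called lower. With no filter 1 Zeb1 probe set (2 in the reported fit) and 3 NF-κB genes (5 in the reported fit) were called higher. Quantile and median scaling each gave 3 NF-κB genes called higher, with 3 and 4 other chemokines called lower (2 in the reported fit). With no floor that number was 1. Leaving out 1 array gave 3 to 4 NF-κB genes called higher and 1 to 2 other chemokines called lower. Over all tested probe sets, same-numbered arrays shared no deviation (correlations of 0.017, 0.014 and -0.039). Pairing by number was thus not seen across the array, which does not exclude it for single probe sets. With the replicate block 3 member probe sets were called higher and 4 lower, as without it, and 1 other chemokine lower.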
